A study of Mus musculus with 4 samples.

Results

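Complex I, the NADH dehydrogenase through which electrons enter the mitochondrial respiratory chain, is built from subunits encoded in both genomes of the cell. Most are encoded in the nucleus, and 7 are encoded on the mitochondrial chromosome: mt-Nd1, mt-Nd2, mt-Nd3, mt-Nd4, mt-Nd4l, mt-Nd5 and mt-Nd6. These 7 genes were chosen by name, from a feature list of 32285 genes in which 13 are mitochondrially encoded protein genes (mt- genes). All 7 had UMIs (unique molecular identifiers, each counting 1 captured RNA molecule) in each of the 4 libraries. The libraries are described as CD31-positive cells of the aorta-gonad-mesonephros region (AGM) of C57BL/6J mouse embryos at embryonic day 11.5, sorted by fluorescence of TMRM, a dye that accumulates in mitochondria with their membrane potential. The low fraction is called MMPlow and the high fraction MMPhigh, and each is represented by 2 droplet libraries made with a 10x Genomics 3′ kit. The AGM is where the first blood stem cells of the embryo form from endothelium, and the study asked which genes' RNA differs between cells whose stem cell capacity differs with the activity of their mitochondria. Whether the 2 libraries of a fraction came from separate embryos is not given in the sources used here, so the spread between them may be technical. The dye reports the membrane potential of a cell and not its amount of mitochondrial RNA.

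The 7 proteins form the membrane arm of complex I, which pumps protons, and mt-Nd2, mt-Nd4 and mt-Nd5 encode its antiporter-like pumping subunits. mt-Nd1 encodes the subunit at the junction with the arm that takes up electrons, and mt-Nd3, mt-Nd4l and mt-Nd6 encode smaller subunits next to it. Both strands of the mitochondrial chromosome are transcribed as long precursors that are cut into single RNAs, largely at the transfer RNAs between the genes. mt-Nd6 is the one protein gene on the light strand, and its RNA is known for carrying little or no poly(A) tail, whereas the other mitochondrial messenger RNAs are polyadenylated. mt-Nd4l and mt-Nd4 are known to stay together on 1 RNA.

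In the GENCODE vM21 annotation of GRCm38, all 7 are single-exon protein-coding genes on chromosome M. mt-Nd1 (ENSMUSG00000064341) lies at 2751-3707, mt-Nd2 (ENSMUSG00000064345) at 3914-4951 and mt-Nd3 (ENSMUSG00000064360) at 9459-9806, all on the plus strand. mt-Nd4l (ENSMUSG00000065947) lies at 9877-10173, mt-Nd4 (ENSMUSG00000064363) at 10167-11544 and mt-Nd5 (ENSMUSG00000064367) at 11742-13565, also on the plus strand. mt-Nd6 (ENSMUSG00000064368) lies at 13552-14070 on the minus strand. The lengths run from 297 bases for mt-Nd4l to 1824 bases for mt-Nd5. The following stretches of the GENCODE transcripts, 60 bases each and written 5′ to 3′ on the gene's own strand, show where members share bases. The capitals in the first pair mark the 7 bases that are both the end of mt-Nd4l and the start of mt-Nd4 (chrM:10114-10173 and chrM:10167-10226, plus strand).
mt-Nd4l end: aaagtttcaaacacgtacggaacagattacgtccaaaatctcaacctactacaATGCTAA
mt-Nd4 start: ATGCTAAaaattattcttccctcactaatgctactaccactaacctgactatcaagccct
The capitals in the second pair mark the 14 bases where the ends of mt-Nd5 and mt-Nd6 overlap on opposite strands, each run the reverse complement of the other (chrM:13506-13565, plus strand, and chrM:13552-13611, minus strand).
mt-Nd5 end: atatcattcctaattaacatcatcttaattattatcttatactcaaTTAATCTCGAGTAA
mt-Nd6 end: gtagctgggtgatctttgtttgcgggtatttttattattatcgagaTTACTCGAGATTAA
The last stretch shows the end of mt-Nd4 (chrM:11485-11544, plus strand), whose 1378 bases are 459 codons and 1 further base, in capitals, which the poly(A) tail completes to a stop codon.
mt-Nd4 end: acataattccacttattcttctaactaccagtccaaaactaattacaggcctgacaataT
The longest run of A was 3 bases in mt-Nd6, and 4 to 8 bases in the other 6 transcripts. mt-Nd6 was 22.2% A, and the other 6 were 29.97% to 36.9% A.

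Some members have near-identical nuclear copies. In a search of the non-mitochondrial GENCODE transcripts, mt-Nd3 matched the pseudogene Gm28438 over 345 bases at 99.7% identity, mt-Nd4 matched Gm28439 over 876 bases at 100%, and mt-Nd4l matched Gm10222 over 294 of its 297 bases at 100%. mt-Nd5 had 1 copy of at least 95% identity over more than 50% of its length, and its longest match was Gm11407 (1055 bases, 92.4%). The longest matches of mt-Nd2 and mt-Nd6 were Gm13339 (510 bases, 96.7%) and Gm11408 (519 bases, 93.6%), and no match to mt-Nd1 was found. None of the longest matches is among the features counted in the deposited matrices. How the authors' counting treated reads that align to both places is not given in the sources used here, so the levels of mt-Nd3, mt-Nd4, mt-Nd4l and mt-Nd5 are uncertain to that extent. The kit marks strand, but whether the counting used it is not given here, and the 14 shared bases of mt-Nd5 and mt-Nd6 cannot be assigned without it.

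After filtering, 41519 cells were analysed: 15698 and 18405 in MMPlow 1 and MMPlow 2, and 4139 and 3277 in MMPhigh 1 and MMPhigh 2. Both MMPlow libraries exceeded a loading limit of 10000 cells per lane. How many of their barcodes were multiplets or empty droplets was not tested beyond the filters and doublet removal. The median depth of the retained cells was 3082, 3638, 3792 and 22864 UMIs per cell in the same order, so over all cells MMPhigh 2 stood apart in depth. Pecam1, which encodes CD31, was at 275 and 262 CPM (UMIs of a gene scaled to 1e6 UMIs of the library) in MMPlow and at 25.3 and 23.3 CPM in MMPhigh. It had a UMI in 52.4% and 54.9% of MMPlow cells and in 10.9% and 26.9% of MMPhigh cells. The description of MMPhigh as CD31-positive was thus not borne out by this RNA, and the protein was not measured here. Endothelial-like cells made up 44.6% and 42.8% of the MMPlow libraries and 0.266% and 0.336% of the MMPhigh libraries, so few MMPhigh cells fell in that class. Cell classes were therefore compared one by one. In 8 marker-named classes each library had at least 20 cells: erythroid, germ cell, haematopoietic progenitor, macrophage, megakaryocyte, mesenchymal, muscle progenitor and neural or neural crest-like. MMPhigh 1 was also deeper than both MMPlow libraries in some classes. In the main erythroid-like cluster its median was 42323 UMIs, with 3054 for MMPlow 1 and 4498 for MMPlow 2. In the main mesenchymal-like cluster the medians were 17423.5, 3446 and 3929.5 in that order. In haematopoietic progenitor-like cells (3331, 3000.5 and 3597) and megakaryocyte-like cells (3439.5, 2926 and 3763) MMPhigh 1 lay between the MMPlow libraries. Pairs of libraries shared 6 to 81 retained barcode sequences, at most 0.749% of a library.

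Per length, the 7 genes spanned more than an order of magnitude in all 4 libraries. In MMPlow, mt-Nd1 was highest among them at 3297 ± 136 (SD, n = 2) CPM per kb of gene, followed by mt-Nd2 at 2074 ± 57.3 and mt-Nd4 at 2029 ± 55.8, whose ranges overlapped. mt-Nd4l followed at 1334 ± 159 CPM per kb and mt-Nd3 at 1040 ± 116, then mt-Nd5 at 386 ± 8.004, and mt-Nd6 was lowest at 178 ± 14.5 CPM per kb. In MMPhigh the values per kb were 2493 ± 126 for mt-Nd1, 1989 ± 86.1 for mt-Nd2, 1509 ± 15.8 for mt-Nd4, 894 ± 218 for mt-Nd4l, 247 ± 15.3 for mt-Nd5 and 76.5 ± 12.2 for mt-Nd6 (SD, n = 2). mt-Nd3 was at 882 CPM per kb in MMPhigh 1 and at 2131 in MMPhigh 2, where it was higher than mt-Nd2. Among the 13 mt- genes, mt-Nd6 was lowest and mt-Nd5 next to lowest in both fractions, while mt-Atp6, mt-Co3 and mt-Co2, which encode subunits of ATP synthase and cytochrome c oxidase, were the 3 highest. That order is per length. A UMI counts 1 captured molecule whatever the length of the gene, so the scaling lowers long genes beside short ones. By CPM alone mt-Nd6 was also lowest, but mt-Nd5, at 704 CPM in MMPlow, was above mt-Nd4l at 396, mt-Nd3 at 362 and mt-Atp8 at 157 CPM. A 3′ kit captures an RNA by its tail, so these levels are of captured molecules, and a gene such as mt-Nd6 with little tail may be undercounted.

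**Figure D1:**
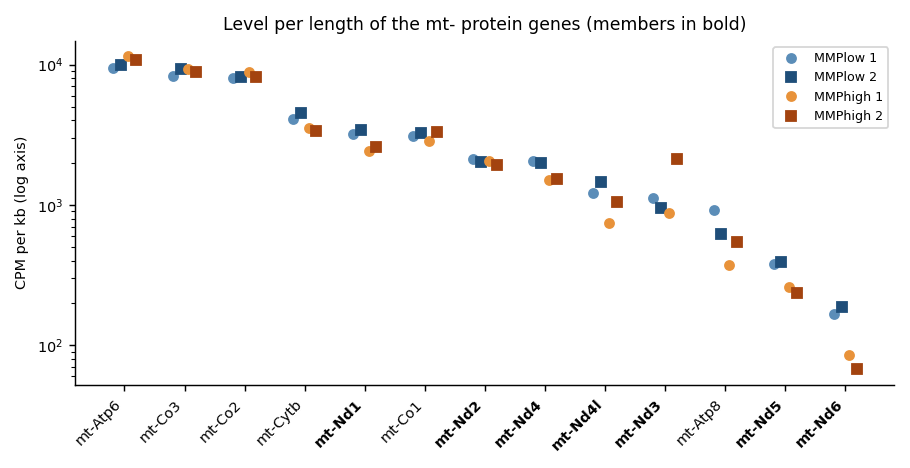
CPM per kb of gene (y, log axis) for the 13 mt- protein genes (x, ordered by their MMPlow mean, complex I genes in bold), 1 point per library over all retained cells. The complex I genes run from 3297 (mt-Nd1) to 178 (mt-Nd6) in the MMPlow means, and MMPhigh 2 stands apart for mt-Nd3.

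The first comparison asked whether the complex I genes held the same part of the mitochondrial messenger RNA in both fractions. Of all mt- UMIs, the 7 genes together gave 25.5% in MMPlow 1, 24.4% in MMPlow 2, 20.2% in MMPhigh 1 and 21.9% in MMPhigh 2. Both MMPhigh libraries lay below both MMPlow libraries, and the mean was 24.99% ± 0.763 against 21.1% ± 1.17 (SD, n = 2 each). With 2 libraries against 2, an exact two-sided permutation test over libraries cannot give a p under 0.333, which it gave here. A share of the mt- UMIs can also move because other mt- genes move. mt-Atp6 (ATP synthase) gave 17.1% and 17.1% of mt- UMIs in MMPlow and 20.9% and 19.7% in MMPhigh, and mt-Cytb (complex III) gave 12.5% and 12.95% against 10.8% and 10.4%.

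The decline in share was unequal among the members. mt-Nd6, the light-strand gene, gave 0.230% and 0.246% of mt- UMIs in MMPlow and 0.119% and 0.0953% in MMPhigh, so its mean MMPhigh share was 0.107% ± 0.0165 against 0.238% ± 0.0116 (SD, n = 2 each). mt-Nd5 gave 1.84% and 1.81% in MMPlow and 1.27% and 1.17% in MMPhigh. mt-Nd1 gave 8.11% and 8.20% against 6.18% and 6.69%. In these 3 genes the fractions did not overlap, and the 2 libraries of a fraction lay close together beside the gap between fractions. mt-Nd4 gave 7.54% and 6.93% in MMPlow and 5.55% and 5.67% in MMPhigh. mt-Nd4l, its partner on the same RNA, gave 0.961% and 1.09% against 0.590% and 0.843%, again without overlap but with more spread. mt-Nd2 did not separate the fractions: it gave 5.81% and 5.33% in MMPlow and 5.72% and 5.42% in MMPhigh. mt-Nd3 gave 1.03% and 0.843% in MMPlow, 0.825% in MMPhigh 1 and 2.01% in MMPhigh 2, so 1 library held the high value.

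The same order held inside the cell classes. MMPhigh lay below MMPlow with no overlap in 8 of 8 classes for mt-Nd1, mt-Nd4, mt-Nd5, mt-Nd6 and the summed genes, and in 7 of 8 for mt-Nd4l, where megakaryocyte-like cells were the exception (0.995% and 1.154% against 0.720% and 1.08%). mt-Nd2 was lower without overlap in 1 of 8 classes, the haematopoietic progenitor-like cells, at 6.00% and 5.40% against 5.18% and 5.27%. Cells of a library share their handling and sequencing, so the 8 classes are not 8 independent tests. Such counts for the other 6 mt- genes are not given here, and shares of 1 pool move against each other. Over all cells, 78.4% of all tested genes did not overlap by CPM, so a lack of overlap is common. In haematopoietic progenitor-like cells, mt-Nd6 gave 0.212% and 0.203% of mt- UMIs in MMPlow and 0.0933% and 0.0795% in MMPhigh. In macrophage-like cells it gave 0.206% and 0.217% against 0.0890% and 0.0775%. In muscle progenitor-like cells it gave 0.211% and 0.255% against 0.130% and 0.113%. The erythroid-like cells, which make haem in their mitochondria, showed the smallest gap in the summed share, at 27.2% and 25.7% in MMPlow and 23.1% and 24.5% in MMPhigh. In germ cell-like cells it was 25.2% and 24.1% against 18.9% and 19.9%. Of the 6 other mt- genes edgeR called 3 higher in neural or neural crest-like, 2 in mesenchymal-like and 1 in muscle progenitor-like cells (background 8.79%, 8% and 0.363%). It called 0 in erythroid, haematopoietic progenitor, macrophage and megakaryocyte-like cells. In germ cell-like cells 4 of the 6 other mt- genes were called higher by edgeR (11.9% of all tested genes were), with a median log2 fold change of 0.60 for the 6 and of -0.01 for the 7 complex I genes. Without MMPlow 1 or MMPlow 2 the count was 0 of 6 (background 1.74% and 2.45%).

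**Figure D2:**
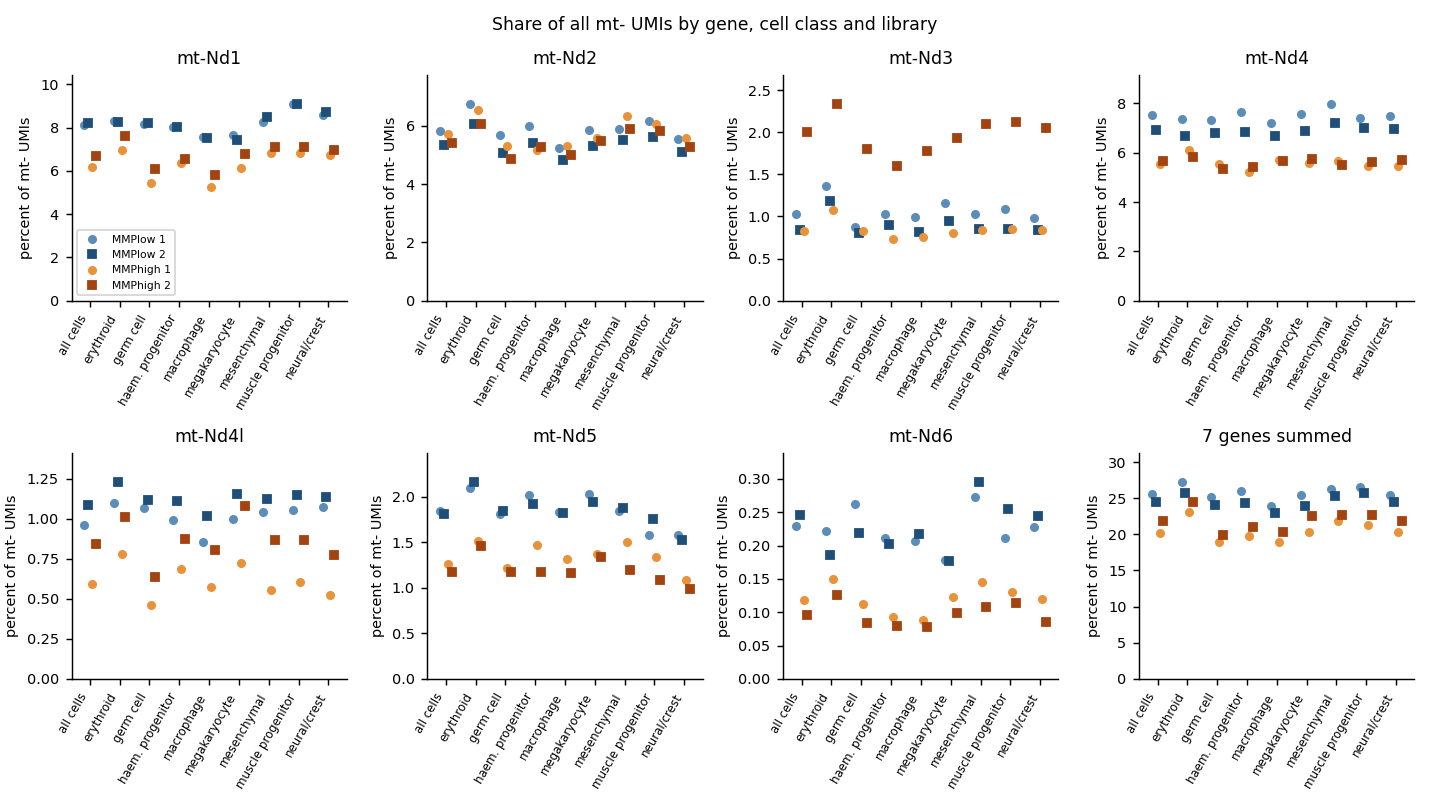
Percent of all mt- UMIs (y) given by each complex I gene and by the 7 together, for all retained cells and 8 classes (x), 1 point per library (blue MMPlow, orange MMPhigh; circle library 1, square library 2). The MMPhigh points lie below the MMPlow points in every class for mt-Nd1, mt-Nd4, mt-Nd5 and mt-Nd6, while mt-Nd2 follows the class and mt-Nd3 is high in MMPhigh 2 alone.

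How far fraction, library and class accounted for each gene's share was described by dividing the sum of squares over the 32 library and class values, with no test. The fraction held 88.1% of it for mt-Nd4, 81.0% for mt-Nd6, 75.0% for mt-Nd5, 69.0% for mt-Nd1 and 61.6% for mt-Nd4l. For mt-Nd2 the class held 69.3% and the fraction 0.0920%. mt-Nd2 was highest in erythroid-like cells, at 6.75% and 6.05% of mt- UMIs in MMPlow and 6.54% and 6.08% in MMPhigh, and low in macrophage-like cells, at 5.25% and 4.83% against 5.30% and 4.997%. For mt-Nd3 the library within the fraction held 70.7%. In each of the 8 classes MMPhigh 2 was the highest library for mt-Nd3, between 1.59% and 2.34% of mt- UMIs, while the other 3 libraries ranged from 0.737% to 1.36%.

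Ratios between members leave out the other mt- genes. Over all cells, mt-Nd6 stood at 12.5 and 13.6 UMIs per 100 mt-Nd5 UMIs in MMPlow and at 9.38 and 8.16 in MMPhigh. The fractions did not overlap in 6 of 8 classes; in erythroid-like cells (10.6 and 8.65 against 9.90 and 8.67) and megakaryocyte-like cells (8.76 and 9.09 against 8.99 and 7.43) they did. mt-Nd2 stood at 71.7 and 65.0 UMIs per 100 mt-Nd1 UMIs in MMPlow and at 92.5 and 81.0 in MMPhigh, and only erythroid-like cells overlapped. mt-Nd4l per 100 mt-Nd4 UMIs, the pair on 1 RNA, stood at 12.7 and 15.7 in MMPlow and at 10.6 and 14.9 in MMPhigh, which overlap, and was higher in library 2 of each fraction. It was lower in MMPhigh without overlap in 2 of 8 classes, germ cell-like (14.5 and 16.5 against 8.29 and 11.9) and neural or neural crest-like cells (14.4 and 16.3 against 9.61 and 13.6).

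The second comparison asked how the level of each gene differed, using UMIs summed per library and edgeR's quasi-likelihood test with Benjamini-Hochberg adjustment over 20356 genes. Of the 7 genes, 5 were called lower in MMPhigh at an adjusted p under 0.05 and 0 were called higher. Of all genes tested, 26.7% were called lower, 54.1% were called in either direction, and in 78.4% the CPM of the 2 fractions did not overlap, as in 5 of the 7. Most genes thus differed between fractions whose cell types differed, and a single call says little. The median log2 fold change (MMPhigh over MMPlow) of the 7 was -0.39, against 0.01 over all genes.

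mt-Nd6 fell most. Its level was 86.8 and 97.4 CPM in MMPlow against 44.2 and 35.2 CPM in MMPhigh, a log2 fold change of -1.18 (SE 0.132, edgeR adjusted p = 0.000210). mt-Nd5 was at 694 and 715 CPM in MMPlow and at 471 and 432 CPM in MMPhigh, with a log2 fold change of -0.61 (SE 0.111, edgeR adjusted p = 0.00188). These calls held without each library in turn. mt-Nd4l was at 363 and 429.8 CPM against 219.7 and 311 CPM, with a log2 fold change of -0.55 (SE 0.170, edgeR adjusted p = 0.0304), and without MMPlow 2 its adjusted p was 0.161. mt-Nd4 was at 2850 and 2741 CPM against 2064 and 2095 CPM, with a log2 fold change of -0.39 (SE 0.121, edgeR adjusted p = 0.0241). Without MMPlow 1 or MMPlow 2 its adjusted p was 0.163 and 0.152. mt-Nd1 was at 3063 and 3247 CPM against 2300 and 2471 CPM, with a log2 fold change of -0.37 (SE 0.127, edgeR adjusted p = 0.0361). Its adjusted p was 0.130, 0.272 and 0.0567 without MMPlow 1, MMPlow 2 or MMPhigh 1.

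The pumping subunit gene mt-Nd2 did not pass, with a log2 fold change of -0.02 (SE 0.123, edgeR adjusted p = 0.881) and overlapping levels of 2195 and 2111 CPM against 2128 and 2001 CPM. mt-Nd3 was at 391 and 334 CPM in MMPlow and at 307 and 742 CPM in MMPhigh, a log2 fold change of 0.56 (SE 0.473, edgeR adjusted p = 0.391) that was -0.19 without MMPhigh 2 and 1.06, called at an adjusted p of 4.15e-06, without MMPhigh 1. None of the other 6 mt- genes passed. Their log2 fold changes ran from -0.70 for mt-Atp8 to 0.23 for mt-Atp6, with a median of 0.04. Of the 5 called genes, mt-Nd1, mt-Nd4 and mt-Nd4l changed direction with which cells were used, as the values by depth of the cell show, while the edgeR folds of mt-Nd5 and mt-Nd6 stayed below 0 there. In cells thinned to 5000 UMIs mt-Nd5 overlapped, at 0.0454% and 0.0537% of UMIs in MMPlow and 0.0555% and 0.0476% in MMPhigh.

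Within the classes, mt-Nd6 was called lower in 7 of 8. In haematopoietic progenitor-like cells it was at 116 and 103 CPM in MMPlow and at 31.9 and 29.8 CPM in MMPhigh, a log2 fold change of -1.54 (SE 0.230, edgeR adjusted p = 0.000381). In macrophage-like cells it was at 107 and 116 CPM against 41.6 and 35.8 CPM, a log2 fold change of -1.29 (SE 0.108, edgeR adjusted p = 2.33e-06). In mesenchymal-like cells it was at 79.1 and 93.2 CPM against 48.3 and 41.8 CPM, a log2 fold change of -0.90 (SE 0.127, edgeR adjusted p = 0.000184). The share of tested genes called lower was 8.91% in progenitor-like, 21.9% in macrophage-like and 12.2% in mesenchymal-like cells. These 3 calls held without each library in turn. They set cells of unlike depth side by side. In cells of at least 5000 UMIs, thinned to 5000, mt-Nd6 had a mean of under 1 UMI a cell: it made up 0.00459% and 0.00711% of UMIs in MMPlow and 0.00522% and 0.00256% in MMPhigh in progenitor-like cells, overlapping. It was lower in MMPhigh without overlap in 2 of 8 classes there, macrophage-like (0.00613% and 0.00938% against 0.00497% and 0.00352%) and mesenchymal-like cells, higher without overlap in 1, and overlapping in 5. The log2 fold change was -0.90 in megakaryocyte-like, -0.81 in germ cell-like, -0.78 in neural or neural crest-like and -0.70 in erythroid-like cells, where 6.49%, 14.8%, 9.30% and 18.9% of tested genes were called lower. With finer clusters, at Leiden resolution 2, the fold in erythroid-like cells was 0.052.

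Each of these 4 calls depended on single libraries. In megakaryocyte-like cells the edgeR adjusted p was 0.0966 without MMPlow 1 and 0.118 without MMPhigh 2. In germ cell-like cells it was 0.249, 0.289 and 0.206 without MMPlow 1, MMPlow 2 or MMPhigh 2. In neural or neural crest-like cells it was 0.122 and 0.168 without MMPlow 1 or MMPlow 2, and in erythroid-like cells 0.0901 without MMPhigh 2. Muscle progenitor-like cells were the class without the call. There mt-Nd6 was at 54.9 and 68.8 CPM in MMPlow and at 68.2 and 48.9 CPM in MMPhigh, overlapping, with a log2 fold change of 0.04 (SE 0.289, edgeR adjusted p = 0.976). Of the genes tested in this class 2.92% were called lower.

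mt-Nd5 was called lower in 4 classes, where 6.49% (megakaryocyte-like) to 21.9% (macrophage-like) of all tested genes were. Its log2 fold change was -0.85 in haematopoietic progenitor-like cells (edgeR adjusted p = 0.00372), where it was at 1106 and 976 CPM in MMPlow and at 504 and 440.3 CPM in MMPhigh. It was -0.74 in megakaryocyte-like, -0.63 in erythroid-like and -0.48 in macrophage-like cells, with edgeR adjusted p of 0.0132, 0.0290 and 0.00535, and at Leiden resolution 2 the erythroid-like fold was 0.057. At 5000 UMIs mt-Nd5 was lower without overlap in 1 of 8 classes, the progenitor-like cells, and higher without overlap in 3. Megakaryocyte-like cells were among the 3, at 0.0724% and 0.0664% of UMIs in MMPlow and 0.103% and 0.0845% in MMPhigh. Erythroid-like and macrophage-like cells overlapped at that depth. Each of these calls was lost without a library: MMPlow 1 for progenitor-like cells (0.103), MMPlow 1 or MMPhigh 2 for megakaryocyte-like cells (0.0823 and 0.147), MMPhigh 1 or MMPhigh 2 for erythroid-like cells (0.220 and 0.329), and MMPhigh 2 for macrophage-like cells (0.108).

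The haematopoietic progenitor-like class, led by Tespa1, Flt3 and Mndal, had the most members called lower, 5 of 7. The background there was 8.91% of all tested genes called lower. Beside mt-Nd5 and mt-Nd6, the class had mt-Nd1 at -0.58, mt-Nd4 at -0.71 and mt-Nd4l at -0.67 on the log2 scale. The count for this class thus takes mt-Nd4 and mt-Nd4l, which share 1 RNA, separately. In its cells of at least 5000 UMIs, thinned to 5000, the 7 genes summed to 0.676% and 0.773% of UMIs in MMPlow and 0.780% and 0.839% in MMPhigh, so the sum lay higher there. Of the single genes at that depth, mt-Nd4 was still lower without overlap (0.215% and 0.220% against 0.195% and 0.209%), as was mt-Nd5, while mt-Nd1 and mt-Nd4l overlapped. The class held 422 and 525 cells in MMPlow and 65 and 46 in MMPhigh. With finer clusters, at Leiden resolution 2, it held 473 and 517 cells in MMPlow and 19 and 21 in MMPhigh. MMPhigh 1 then had too few cells for a comparison. With coarser clusters no class had this name. No result of this class, here or elsewhere, was thus checked with another clustering. The calls of mt-Nd1, mt-Nd4 and mt-Nd4l were lost without MMPlow 1, where their edgeR adjusted p was 0.172, 0.150 and 0.157. Without MMPhigh 1 they were 0.142, 0.0566 and 0.147. Without MMPlow 2 the adjusted p was 0.0772 for mt-Nd1 and 0.142 for mt-Nd4l, and without MMPhigh 2 it was 0.0525 for mt-Nd1. In macrophage-like cells mt-Nd1 was also called, at -0.37 (edgeR adjusted p = 0.0347), and leaving out MMPlow 2, MMPhigh 1 or MMPhigh 2 gave 0.0696, 0.278 and 0.126. At 5000 UMIs it overlapped there, at 0.229% and 0.279% against 0.275% and 0.277%, and different clusters held most of this class in each fraction.

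In cells of at least 5000 UMIs, thinned to 5000, rises in MMPhigh were common. There mt-Nd2 and mt-Nd3 were higher without overlap in 8 of 8 classes. mt-Nd4 was higher in 7 and lower in 1, and mt-Nd1 was higher in 6 and overlapped in 2. mt-Nd4l was higher in 3 and overlapped in 5. Over retained cells of all depths, edgeR calls in the other direction were few. mt-Nd3 was called higher in germ cell-like and muscle progenitor-like cells, at 1.11 and 1.53 on the log2 scale (edgeR adjusted p = 0.0196 and 0.00385), where 11.9% and 0.363% of tested genes were called higher. In muscle progenitor-like cells it was at 283 and 229 CPM in MMPlow and at 443 and 917 CPM in MMPhigh. Without MMPlow 1 or MMPlow 2 the adjusted p was 0.198 and 0.108 in germ cell-like cells, and 0.146 and 0.317 in muscle progenitor-like cells. mt-Nd2 was called higher in mesenchymal-like cells, at 1712 and 1737 CPM against 2108 and 2274 CPM (log2 0.40, edgeR adjusted p = 0.0305), and in neural or neural crest-like cells, at 1315 and 1295 CPM against 1762 and 1705 CPM (log2 0.49, edgeR adjusted p = 0.0411). In these 2 classes 8% and 8.79% of tested genes were called higher. Leaving out MMPlow 1, MMPlow 2 or MMPhigh 2 gave 0.259, 0.187 and 0.0514 in mesenchymal-like cells, and leaving out MMPlow 1 or MMPlow 2 gave 0.304 and 0.293 in neural or neural crest-like cells.

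**Figure D3:**
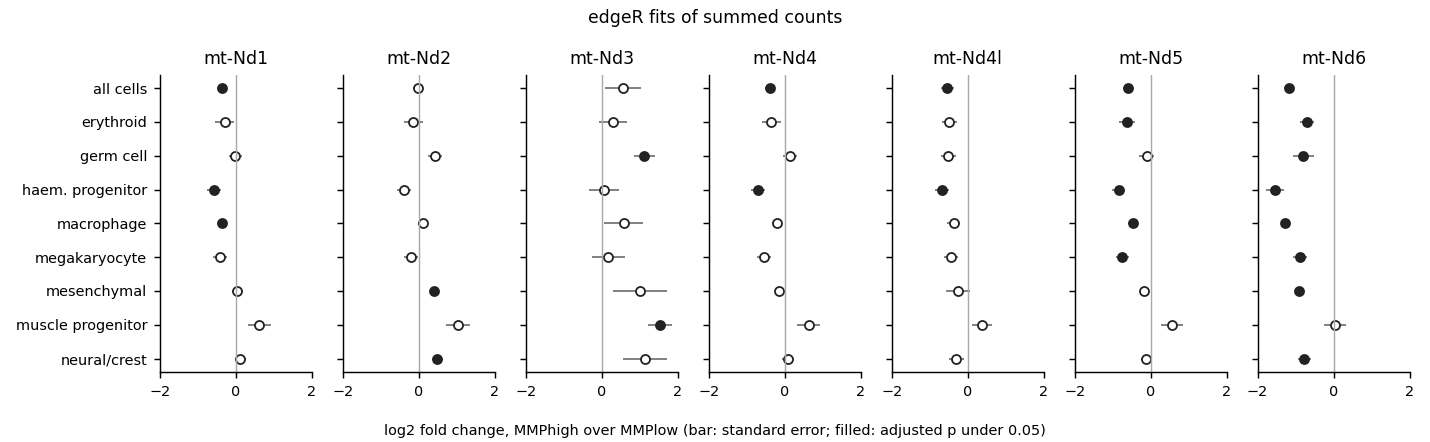
Log2 fold change (x, MMPhigh over MMPlow) of each complex I gene in all retained cells and 8 classes (y), from edgeR fits of UMIs summed per library; bars are standard errors and filled points have an adjusted p under 0.05. mt-Nd6 is filled and below 0 in 7 of 8 classes, and mt-Nd3 lies above 0 in all of them. edgeR rescales the libraries, so a fold can differ in sign from the CPM. Mean mt-Nd3 was 511 CPM in MMPlow and 425 in MMPhigh in haematopoietic progenitor-like cells, and 515 and 502 CPM in erythroid-like cells.

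The third comparison asked what part of a cell's UMIs the 7 genes made up. Each cell was thinned at random to 2000 UMIs. Thinning makes the counted UMIs equal, but the cells compared still came from unlike original depths. The mean per cell was 1.11% and 1.14% of UMIs in MMPlow and 0.815% and 0.994% in MMPhigh, without overlap (exact two-sided permutation p = 0.333, the smallest possible). Single cells varied widely: the 10th and 90th percentiles were 0.35% and 2.05% in MMPlow 1 and 0.40% and 1.65% in MMPhigh 2. In 0.0610% to 0.362% of cells none of the 7 genes had a UMI after thinning.

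This comparison turned around with the depth of the cells chosen. With cells of at least 5000 UMIs, thinned to 5000, the mean was 0.619% and 0.713% in MMPlow and 0.881% and 0.917% in MMPhigh, so MMPhigh lay above. Without thinning, cells of 2000 to under 5000 UMIs gave 1.24% and 1.32% in MMPlow and 0.774% and 1.97% in MMPhigh, with MMPhigh 1 below and MMPhigh 2 above. Cells of 5000 to under 10000 UMIs gave 0.633% and 0.760% against 1.16% and 1.73%, and cells of at least 10000 UMIs gave 0.523% and 0.543% against 0.730% and 0.835%. In MMPlow the share fell from each depth band to the next. The members' share of the mt- UMIs did not turn around: in the same 3 bands it was 25.4% and 24.2% against 18.6% and 20.3%, then 25.8% and 24.7% against 19.6% and 20.7%, and 26.8% and 25.3% against 21.0% and 22.0%.

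**Figure D4:**
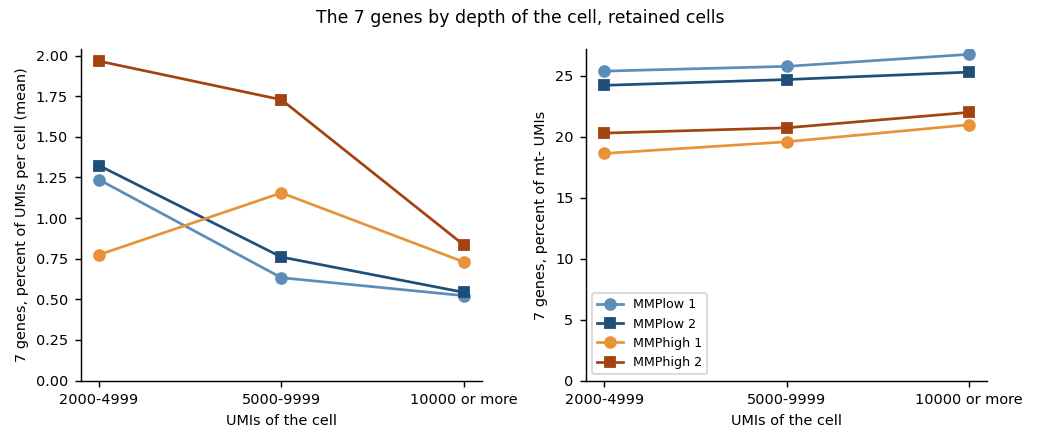
The 7 complex I genes by depth of the cell (x, 3 bands of UMIs per cell), as mean percent of a cell's UMIs (left y) and as percent of all mt- UMIs (right y), 1 line per library over retained cells. On the left the MMPlow lines fall from 1.24% and 1.32% to 0.523% and 0.543% while MMPhigh 1 goes from below both to above both and MMPhigh 2 is above them in each band, and on the right both MMPhigh lines stay below both MMPlow lines.

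The edgeR folds over all cells followed the same pattern. With a stricter filter of at least 5000 UMIs, the log2 fold change of mt-Nd1 was 0.14 and that of mt-Nd4 0.14, neither called, and mt-Nd2 was called higher at 0.51 (edgeR adjusted p = 0.00231). mt-Nd4l and mt-Nd5 were each at -0.12 there, not called, and mt-Nd6 was still called lower, at -0.76. In the range from 2000 to under 5000 UMIs the calls of all 5 genes were lost, and mt-Nd1, mt-Nd4 and mt-Nd4l had folds above 0, at 0.14, 0.11 and 0.41, with mt-Nd5 at -0.24 and mt-Nd6 at -0.59. After thinning each cell to 2000 UMIs before summing, mt-Nd6 remained called, and the others had edgeR adjusted p of 0.393 for mt-Nd1, 0.324 for mt-Nd4, 0.317 for mt-Nd4l and 0.0519 for mt-Nd5.

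Classes differed in level and in direction. In MMPlow cells thinned to 2000 UMIs, the haematopoietic progenitor-like class had the highest mean per cell, 1.62% ± 0.0712 (SD, n = 2). It was followed by erythroid-like (1.54% ± 0.256), megakaryocyte-like (1.48% ± 0.137) and macrophage-like cells (1.42% ± 0.0388). None of these classes differed from its neighbour beyond the range of the libraries. Muscle progenitor-like cells (0.798% ± 0.0110) and neural or neural crest-like cells (0.678% ± 0.0319) were low, and each of these lay apart from the class above it. Germ cell-like cells were at 1.08% ± 0.166 and mesenchymal-like cells at 0.878% ± 0.0554. The order at the top changed in MMPlow cells of at least 5000 UMIs, thinned to 5000. There the means of megakaryocyte-like (0.820%) and macrophage-like cells (0.805%) lay above that of haematopoietic progenitor-like cells (0.724%). The libraries of the macrophage-like and haematopoietic progenitor-like classes overlapped at that depth. So did those of muscle progenitor-like (0.560% and 0.621%) and mesenchymal-like cells (0.600% and 0.614%). Neural or neural crest-like cells (0.505% and 0.512%) still lay below both. The erythroid-like mean was 0.636% there, below that of germ cell-like cells (0.664%). In MMPhigh cells thinned to 2000 UMIs, megakaryocyte-like, muscle progenitor-like and germ cell-like cells were highest, at 1.29% ± 0.316, 1.27% ± 0.0417 and 1.20% ± 0.112. Haematopoietic progenitor-like cells were lowest there, at 0.730% ± 0.157. Every class in this MMPhigh order overlapped its neighbour. In MMPhigh cells of at least 5000 UMIs, thinned to 5000, neural or neural crest-like cells had the lowest mean of the compared classes, 0.730%. Haematopoietic progenitor-like cells were at 0.810% there.

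Haematopoietic progenitor-like cells gave 1.67% and 1.57% in MMPlow and 0.619% and 0.841% in MMPhigh. Among the cells of this class with at least 5000 UMIs, 61 and 149 in MMPlow and 23 and 39 in MMPhigh, the values were 0.676% and 0.773% against 0.780% and 0.839%. Erythroid-like cells gave 1.72% and 1.36% against 1.21% and 0.863%, and 0.621% and 0.652% against 1.21% and 0.824% at 5000 UMIs. Both classes were thus lower in MMPhigh at the first depth and higher at the second. Macrophage-like cells gave 1.39% and 1.44% against 1.08% and 1.02%, and 0.742% and 0.868% against 0.994% and 0.989% at 5000 UMIs. Different clusters held most of this class: in MMPlow 67.3% and 65.7% of its cells were in a cluster led by Gm2245, Gm20528 and F13a1, and in MMPhigh 59.9% and 61.2% were in one led by Mrc1, F13a1 and Dab2. Within the second cluster the values were 0.921% and 0.913% in MMPlow and 1.10% and 1.05% in MMPhigh, the reverse of the class as a whole. Its share of mt- UMIs from the 7 genes kept the order of the class, at 23.8% and 22.7% against 19.6% and 20.8%.

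Muscle progenitor-like cells were higher in MMPhigh at both depths. They gave 0.806% and 0.790% in MMPlow and 1.24% and 1.30% in MMPhigh, and 0.560% and 0.621% against 1.28% and 1.25% at 5000 UMIs. Here too the clusters differed: 91.8% and 80.6% of the MMPlow cells and 52.8% of the MMPhigh 2 cells were in a cluster led by Ttn, Actc1 and Myog, and 89.2% of the MMPhigh 1 cells in one led by Tnnc2, Tnnt2 and Actc1. Within the first cluster the values were 0.818% and 0.831% in MMPlow and 1.22% and 1.02% in MMPhigh. In the germ cell, megakaryocyte, mesenchymal and neural or neural crest-like classes the fractions overlapped when thinned to 2000 UMIs, and in all 4 MMPhigh lay above MMPlow at 5000 UMIs. In megakaryocyte-like cells, for example, the values were 1.58% and 1.38% against 1.07% and 1.51%, and then 0.824% and 0.816% against 1.499% and 1.40%. The main neural or neural crest-like cluster, led by Dcc, held 61.1% and 62.6% of its class in MMPlow and 87.3% and 87.3% in MMPhigh. Within it the values at 2000 UMIs did not overlap, at 0.570% and 0.576% against 0.674% and 0.825%. Those of the cluster led by Cdh6 overlapped, at 0.791% and 0.910% against 0.859% and 1.12%. Among unthinned cells of 2000 to under 5000 UMIs, mesenchymal-like cells gave 0.935% and 1.095% in MMPlow and 1.24% and 3.44% in MMPhigh. Neural or neural crest-like cells overlapped there, at 0.713% and 0.835% against 0.705% and 2.24%.

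**Figure D5:**
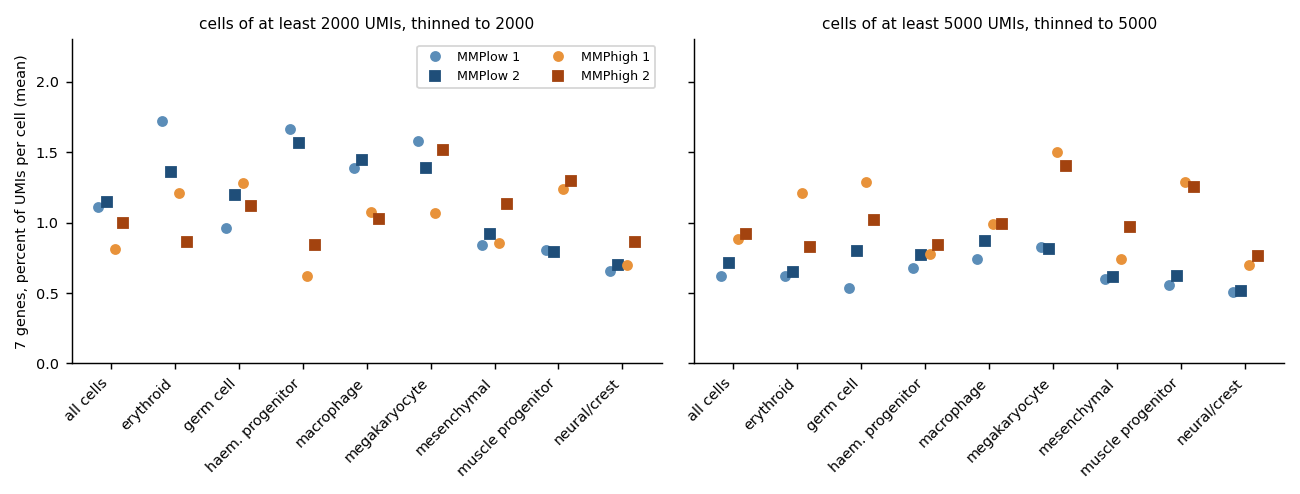
Mean percent of a cell's UMIs from the 7 complex I genes (y) in all retained cells and 8 classes (x), 1 point per library, for cells thinned to 2000 UMIs (left) and cells of at least 5000 UMIs thinned to 5000 (right). At 5000 UMIs both MMPhigh points lie above both MMPlow points in all 8 classes, as for haematopoietic progenitor-like cells at 0.780% and 0.839% against 0.676% and 0.773%.

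The nuclear side of the same complex was read from lists of its other genes. Of 36 measured nuclear complex I subunits, 10 were called higher in MMPhigh and 0 lower over all cells, with 27.4% of all tested genes called higher, so the share is near the background, and the median log2 fold change was 0.16. Without MMPlow 1 and without MMPlow 2 the count called higher was 3 and 2, with 18.7% and 20.2% of all tested genes called higher. Without MMPhigh 1 it was 8 higher and 1 lower, and without MMPhigh 2 it was 15 higher and 3 lower (25.5% and 25% of all genes called higher). The 3 largest were in core subunits of the electron-input arm. Ndufs8, an iron-sulfur subunit, was at 69.1 and 72.8 CPM in MMPlow and at 114 and 98.7 CPM in MMPhigh (log2 0.62, SE 0.101, edgeR adjusted p = 0.00106). Ndufs3 and Ndufv1, the latter the NADH-binding subunit, changed by 0.51 and 0.39 on the log2 scale (edgeR adjusted p = 0.00208 and 0.00461). In haematopoietic progenitor-like cells 26 of 36 were called higher and 0 lower, with 12.3% of all tested genes called higher, and the median log2 fold change of the list was 0.72. The count in these cells rested on the MMPlow libraries: without MMPlow 1 it was 0 of 36 (background 0.275%), without MMPlow 2 it was 11 of 36 (background 4.32%), and without MMPhigh 1 or MMPhigh 2 it was 26 or 23, while the list's median stayed between 0.64 and 0.80. In macrophage-like cells 25 of 36 were called higher (background 21.9%), and in erythroid-like cells 18 of 36 (background 16.6%), with medians of 0.39 and 0.45. Leaving out 1 library at a time gave 17 to 25 in macrophage-like cells (background 14.5% to 19%) and 12 to 28 in erythroid-like cells (background 6.91% to 22%), the 28 without MMPlow 2. In megakaryocyte-like cells 4 of 36 were called higher (background 3.61%), and 1 without MMPlow 1 (background 0.371%) and 7 without MMPlow 2 (background 3.6%). In germ cell-like cells 4 of 36 were called higher (background 11.9%) and in mesenchymal-like cells 3 of 36 (background 8%), both near the background. In muscle progenitor-like and neural or neural crest-like cells 0 of 36 were called in either direction by edgeR. Without MMPhigh 2 the first of these had 24 called higher (background 11.2%). The second had 3 called higher and 6 lower, where 994 and 1277 of 13453 tested genes were, so 3 is near the background.

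Of 15 complex I assembly factors, 1 was called higher and 1 lower over all cells, where 54.1% of all tested genes were called in either direction. Ndufaf3 changed by 0.45 and Ndufaf2 by -0.44 on the log2 scale (edgeR adjusted p = 0.00777 and 0.00261). Of 29 genes for mitochondrial DNA upkeep, transcription and RNA handling, 9 were called higher and 5 lower, against 27.4% and 26.7% of all tested genes. Without MMPlow 1 and without MMPhigh 2 the count called higher was 1 and 4 (background 18.7% and 25%). Polg, the mitochondrial DNA polymerase, was at 27.6 and 23.8 CPM in MMPlow and at 16.4 and 16.2 CPM in MMPhigh (log2 -0.62, edgeR adjusted p = 0.000859). Pnpt1, a ribonuclease of the mitochondrial degradosome, changed by -0.54 (edgeR adjusted p = 0.000710), and Tefm, a mitochondrial transcription elongation factor, by 0.52 (edgeR adjusted p = 0.0115). A list of 13 nuclear-retained RNAs and dissociation-response genes had 8 called higher and 0 lower, with 27.4% of all tested genes called higher and 26.7% lower. Fos, an immediate-early gene, was at 1.49 and 1.74 CPM in MMPlow and at 23.0 and 24.9 CPM in MMPhigh, and Jun was at 83.9 and 82.1 against 151 and 159.6 CPM. Meg3, a nuclear RNA, was at 246 and 214 against 425 and 494 CPM. The summed level of this list was 7802 to 7966 CPM in MMPhigh and 8021 to 8737 CPM in MMPlow over all cells, and in haematopoietic progenitor-like cells it was 6571 and 5713 CPM in MMPlow and 3436 and 2881 CPM in MMPhigh. The single genes did not follow the sum there. Of 10 tested in these cells, 4 were called higher and 2 lower, where 12.3% and 8.91% of all tested genes were. Their median log2 fold change was 1.18. The assembly factor and upkeep lists differed by class. In erythroid-like cells 7 of 15 and 12 of 29 were called higher and 0 lower, with 16.6% of tested genes called higher. That class had 122 called genes at Leiden resolution 2, against 4478. In macrophage-like cells 4 of 15 were called higher and 1 lower, and 2 of 29 higher and 6 lower (background 21.9% each way). The part of the nuclear-retained and dissociation-response genes, of depth and of cell handling in the members' differences was not tested.

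Across 37 sums of a library and a named class, each of at least 20 cells, the log2 level of mt-Nd4 had a Pearson correlation of 0.975 with that of the 7 summed. For mt-Nd1 it was 0.969, for mt-Nd5 0.920, for mt-Nd2 0.919, for mt-Nd4l 0.816, for mt-Nd6 0.643 and for mt-Nd3 0.469. Each gene is part of the sum, and sums of a library share depth and handling, so these are descriptions. Among 4118 other genes of at least 50 CPM, the 5 most like the sum were Sil1 (0.696), Arih2 (0.691), Asxl2 (0.684), Anln (0.671) and Zdhhc6 (0.668). None of these came as close as mt-Cytb (0.913), mt-Co2 (0.840), mt-Atp8 (0.829) or mt-Co1 (0.824).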

How the data were processed

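The 4 deposited matrices hold raw UMI counts, 1 value for each gene in each barcode. Per the file headers they came from Cell Ranger 7.0.1; the submitters' processing notes name Cell Ranger 2.1.1 and the build mm10, and the difference could not be settled. The lists of barcodes and features carry no measurements. Depth was 120168395, 102083810, 51800709 and 112739406 UMIs in 59928, 23715, 13939 and 4288 barcodes (MMPlow 1, MMPlow 2, MMPhigh 1, MMPhigh 2).

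A barcode counted as a cell with 2000 or more UMIs, 1000 or more genes and under 25% mt- UMIs. Scrublet's automatic threshold marked 1, 886, 0 and 0 barcodes and was taken not to have worked, so the top 6% of doublet scores were removed per library, a share set after seeing this. Cells were clustered with scanpy 1.11.5 (2000 variable genes without mitochondrial, OXPHOS and ribosomal genes, 30 components, 15 neighbours, Leiden resolution 1), which gave 26 clusters, named from 12 marker lists. Of these, 5 stayed unnamed. The rebuilt names may differ from the authors'.

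UMIs summed per library and class were tested with edgeR 4.0.16 (TMM, quasi-likelihood F-test, two-sided, adjusted p under 0.05), with standard errors on the log2 scale computed here. The script was tested on simulated data. Shares were compared by exact permutation over libraries. Thinning draws UMIs without replacement. The members and lists were chosen with earlier results of these data known. Named are all 7 members, the other 6 mt- genes, the 3 genes of each list with the largest called change at an average of at least 10 CPM, and the 5 genes most like the members. Other genes were named after their values were seen. Same-numbered libraries deviated together with r = 0.120 over all cells and -0.0667 to 0.180 in the classes, and nothing in the labels pairs them. Alternatives were other cell filters and depths, scalings (RLE, without mt- genes), DESeq2 1.42.0, no low-count filter, other Leiden resolutions, a replicate block, and each library left out.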

Additional observations from a re-analysis of the deposited data

Results flagged for a closer look

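The percent of UMIs from the 7 genes moved in opposite directions in different classes, when cells were thinned to 2000 UMIs. It was higher in both MMPhigh libraries than in both MMPlow libraries in muscle progenitor-like cells, and lower in both in erythroid-like, haematopoietic progenitor-like and macrophage-like cells. The difference (MMPhigh minus MMPlow) in muscle progenitor-like cells exceeded that in haematopoietic progenitor-like cells by 1.36 percentage points, that in erythroid-like cells by 0.974 and that in macrophage-like cells by 0.836. These differences between classes were not tested. At 5000 UMIs per cell all 4 classes were higher in MMPhigh.

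Barcodes with at least 25% of UMIs from mt- genes were left out of the comparisons above, and they were nearly all in MMPhigh. They made up 3.26% of the deposited barcodes of MMPhigh 1 (454, exact 95% interval 2.97% to 3.57%) and 12.3% of those of MMPhigh 2 (527, 11.3% to 13.3%). MMPlow 2 had 14 (0.0590%, 0.0323% to 0.0990%). MMPlow 1 had 0 of 59928, where the exact interval ends at 0.00616%. The intervals cover counting error only. In these barcodes the 7 genes gave 24.7% of mt- UMIs in MMPlow 2, 20.5% in MMPhigh 1 and 21.5% in MMPhigh 2, and mt-Nd6 gave 0.225%, 0.100% and 0.0849%.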

How the results depend on the processing

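The lower share of mt- UMIs from the 7 genes in MMPhigh kept its direction in all 95 alternative values, over all cells between -5.34 and -3.09 percentage points. For single members over all cells, 78 of 84 values kept it. The difference of mt-Nd2 (-0.00475) was 0.0483 with cells of at least 5000 UMIs and 2000 genes, 0.00861 without a mitochondrial limit, 0.00455 without the Hbb-bs-led cluster (an alternative chosen after seeing the data), and -0.243 to 0.234 with a library left out. That of mt-Nd3 (0.478) was -0.114 to 1.07 with a library left out. The percent of UMIs per cell was less stable, with 19 of 113 values reversed. With the stricter filter the difference (MMPhigh minus MMPlow) was 0.231 over all cells, 0.359 in erythroid-like, 0.0492 in haematopoietic progenitor-like, 0.188 in macrophage-like and 0.644 in megakaryocyte-like cells. With cells of at least 5000 UMIs thinned to 5000 it was 0.233, 0.380, 0.0854, 0.186 and 0.630 in the same order, and 0.0861 over all cells of 2000 to under 5000 UMIs. In germ cell-like cells (0.123) it was -0.0157 with the looser filter, -0.139 with a mitochondrial limit of 10% and -0.0750 as a median over cells. In mesenchymal-like cells (0.116) the last 2 gave -0.0868 and -0.0375, and leaving out a library gave -0.0243 to 0.255. In megakaryocyte-like cells (-0.193) it was 0.117 without a mitochondrial limit and -0.416 to 0.0308 with a library left out.

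Of 333 alternative log2 fold changes, 241 kept direction and call, 72 lost the call, 1 gained it and 19 reversed. These 333 cover all members over all cells, mt-Nd6 in each class and other members only where called, so few could gain a call. For the remaining members and classes there were 402 values, of which 345 kept direction and call, 30 gained a call and 27 reversed. Over all cells, the stricter filter gave 0.14 for mt-Nd1, 0.51 for mt-Nd2 and 0.14 for mt-Nd4, and cells of 2000 to under 5000 UMIs gave 0.14, 0.58 and 0.11, and 0.41 for mt-Nd4l. mt-Nd2 was also at 0.062 with the looser filter, 0.018 without a mitochondrial limit, 0.082 after thinning to 2000 UMIs and -0.085 to 0.031 with a library left out, and mt-Nd3 at -0.19 to 1.06. At Leiden resolution 2, mt-Nd5 was at 0.057 and mt-Nd6 at 0.052 in erythroid-like cells, and mt-Nd6 at -0.017 in muscle progenitor-like cells, where resolution 0.5 gave -0.25 and a library left out -0.31 to 0.41. In neural or neural crest-like cells of 2000 to under 5000 UMIs mt-Nd6 was at 0.13.

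The number of genes called moved by more than 1.5 times in 32 of 105 alternatives. Over all cells it was 11003, and 5361 with cells of 2000 to under 5000 UMIs. DESeq2 called 2921 genes against 4478 by edgeR in erythroid-like, 1327 against 2645 in germ cell-like, 784 against 2140 in haematopoietic progenitor-like, 539 against 1176 in megakaryocyte-like, 1373 against 2852 in mesenchymal-like and 139 against 343 in muscle progenitor-like cells. Cells of 2000 to under 5000 UMIs gave 20 calls in mesenchymal-like, 52 in neural or neural crest-like and 2429 in muscle progenitor-like cells. Leiden resolution 2 gave 122 in erythroid-like, 194 in muscle progenitor-like and 1697 (against 2667) in neural or neural crest-like cells. In muscle progenitor-like cells resolution 0.5 gave 1830 and no low-count filter 540. With a library left out the counts ran from 2307 to 5305 in erythroid-like, 585 to 5400 in germ cell-like, 100 to 2357 in haematopoietic progenitor-like, 240 to 1957 in megakaryocyte-like, 1470 to 3299 in mesenchymal-like, 198 to 2250 in muscle progenitor-like and 54 to 4166 in neural or neural crest-like cells. The cause of these changes was not tested.

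The libraries share only a number, so a replicate block is an alternative here: it called 10896 genes over all cells and 1820 in megakaryocyte-like cells, and the edgeR adjusted p of mt-Nd1 and mt-Nd4 over all cells became 0.113 and 0.0880. In haematopoietic progenitor-like and macrophage-like cells that of mt-Nd1 became 0.0847 and 0.0553, and in mesenchymal-like cells that of mt-Nd2 became 0.0549. Where an arm was left with 1 library, its spread was taken from the other arm. Classes with under 20 cells in a library under an alternative gave no value there. At like depth the MMPhigh libraries still differed: mt-Nd3 was 0.705% of mt- UMIs in MMPhigh 1 and 1.76% in MMPhigh 2 among retained cells of 2000 to under 5000 UMIs.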

Other observations

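Endothelial-like cells, the largest class of the MMPlow libraries with 7005 and 7872 cells, could not be compared because each MMPhigh library held 11. In MMPlow the 7 genes made up 1.07% ± 0.106 (SD, n = 2) of UMIs per cell in this class and 25.1% ± 0.612 of mt- UMIs. A cluster led by the arterial genes Gja5, Vegfc and Gja4 had the lowest share of mt- UMIs among the 14 classes and clusters of MMPlow, 22.9% ± 0.376, which overlapped that of macrophage-like cells (23.4% ± 0.708), and a cluster led by Stab2, Oit3 and Gata4 had 25.4% ± 0.693. Granulocyte or mast-like cells had 23.8% ± 0.239.

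A cluster led by Hbb-bs, Rpgrip1 and Cited4 held 1510 cells of MMPhigh 1, 124 of MMPhigh 2 and 9 and 10 of MMPlow. In it the 7 genes gave 18.6% of mt- UMIs in MMPhigh 1 and 21.8% in MMPhigh 2. In MMPhigh 2, deposited barcodes of 1000 to under 2000 UMIs averaged 42.4% mt- UMIs, against 5.75% in MMPhigh 1, 6.90% in MMPlow 2 and 1.65% in MMPlow 1. The members' share of mt- UMIs in these barcodes was 21.4%, 19.0%, 23.8% and 25.2% in the same order.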
